A study of Aspergillus nidulans with 32 samples.

Results

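Among 10681 genes measured in mycelium of the filamentous fungus Aspergillus nidulans, 109 stood at a like level after refeeding whether or not the culture had starved before, but at a lower level in pre-starved than in naive cultures once nutrients were removed again. They were chosen by these measured levels. Levels in CPM, with libraries scaled by the TMM method, were averaged over the 4 libraries of a group and 0.5 was added. A member had a refed ratio of pre-starved over naive between 0.67 and 1.5 and a naive refed value of at least 5. Its pre-starved level lay below the naive level by a factor of 1.7 or more, both in salt and in used medium, and its pre-starved salt level was at most 1/2 of the pre-starved refed level. Of 5211 genes with a like refed level and that minimum, 1158 fell to 1/2 or less in salt in pre-starved cultures, 157 of these also had the gap in salt, and 109 had it in used medium too. The same rule with pre-starved and naive exchanged was met by 221 genes. Since the rule used the 6 refed, salt and used medium groups, levels there are given as a description without a test. The starved and grown cultures were not used by it.

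Polyadenylated RNA was sequenced from 16 cultures in 8 groups, each group made of the biological cultures A and B and each culture of 2 technical libraries. All began in minimal medium with glucose and nitrate at 37 °C with shaking. Starved cultures had 20 h of this growth followed by 4 h in the medium's salts, which lack a source of carbon and of nitrogen, and grown cultures had 24 h of growth. Pre-starved refed cultures had 20 h of growth, 4 h of salt and 2 h in fresh medium, and naive refed cultures had 24 h of growth and 2 h in fresh medium. Pre-starved salt and naive salt cultures were moved from there into the salt solution for 1 h. Pre-starved used medium and naive used medium cultures were moved instead, for 1 h, into used medium, whose carbon and nitrogen a culture had spent over 48 h. The labels name the wild type FGSC#4 and the strain alcA(p)-sGFP-aflR (RKIS42.17), whose name places aflR behind the alcA promoter, but do not assign samples to strains. They also name the auxotrophic markers pabaA1, pabaB22 and biA1, met by p-aminobenzoic acid and biotin. Past starvation came with 4 h less growth and with 1 further change of medium, so these cannot be told apart.

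Filamentous fungi that lose their outside sources of carbon and nitrogen turn to internal reserves. In Aspergillus nidulans nitrate is taken up by transporters and reduced to nitrite by nitrate reductase and to ammonium by nitrite reductase, under the pathway activator NirA and the general nitrogen regulator AreA. Glucose is broken down by glycolysis to pyruvate, which pyruvate decarboxylase can direct towards ethanol. When an earlier exposure changes how fast or how far a gene responds to a later one, although its level was back to normal in between, this is called transcriptional memory, the question named in the study's title.

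Library totals ran from 19634577 to 33202687 counts. Of the 10681 genes 10022 were tested, and all 109 members were among them. Adjusted p-values are from the quasi-likelihood test of edgeR over all 10022 genes, with a threshold of 0.05. Cultures A and B of a group differed across tested genes by an SD of 0.24 to 0.42 on the log2 scale. Of 7 marker genes of spore-forming structures, a cell type that mycelium can form, the summed level was 251 and 548 CPM in pre-starved salt cultures, against 45.9 and 51.3 CPM in naive salt cultures. It was 2183 and 1727 CPM in pre-starved refed cultures, against 24.2 and 22.2 CPM in naive refed cultures, and 153 and 301 CPM in pre-starved used medium cultures, against 52.0 and 40.0 CPM in naive ones. Among the 6 refed and moved groups the lowest mean of any marker was 0.0894 CPM, in pre-starved refed cultures, and in salt no marker mean was under 2.14 CPM. The sum was carried by rodA, a spore wall hydrophobin gene (mean 278 CPM in pre-starved salt cultures, against 2.74 CPM in naive ones), and brlA, the activator of spore formation (mean 80.8 CPM in pre-starved salt cultures, against 16.4 CPM in naive ones). The markers did not all move alike: dewA was at 0.773 CPM in pre-starved used medium cultures, against 1.92 CPM in naive ones, and yA there at 12.5 CPM in pre-starved, against 14.3 CPM in naive cultures. The sum moved with the history of the cultures, and its part in the results was not tested. In such bulk samples, fewer cells of a type and less RNA per cell cannot be told apart.

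Taken as a sum or by their median, the members lost most of their transcript when nutrients were removed, and lost more of it in cultures that had starved before. Single members differed: 5 stood higher in salt than refed in naive cultures, and 9 in used medium. In pre-starved cultures 1 member, AN10217, stood higher in used medium than refed (refed over used medium ratio 0.778). Summed over the 109 members, the level was 4345 and 4764 CPM in pre-starved salt cultures, against 9883 and 11514 CPM in naive salt cultures. Refed, it was 73784 and 87743 CPM in pre-starved cultures, against 68618 and 83635 CPM in naive cultures. The median log2 difference between salt and refed was -3.67 in pre-starved cultures and -2.40 in naive cultures, where the medians of all 10022 genes were 0.09 and -0.03. Between used medium and refed it was -3.58 in pre-starved and -2.29 in naive cultures. Directly between histories, pre-starved minus naive, the median was -1.18 in salt, -1.26 in used medium and -0.07 after refeeding. The rule fixed the direction of the first 2 of these and bounded the refed one. By its gap and its lower refed bound, it also fixed that pre-starved responses to both media lay below the naive ones. In the 2 pre-starved salt cultures 107 members lay below both naive salt cultures, as did 33.4% of all tested genes, and in used medium also 107 did, against 33.3% of all. Those counts restate the choice of the members. The exceptions were AN4113 and AN7558 in salt and AN0709 and AN5768 in used medium. The plot of responses to salt shows all genes beside the members.

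**Figure D1:**
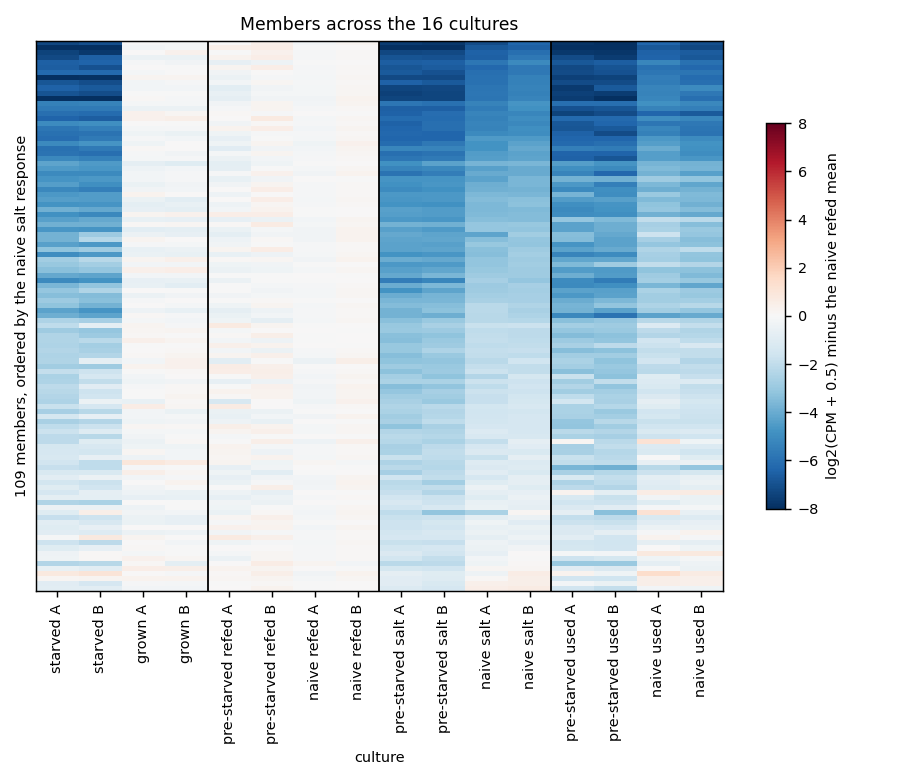
Heat map of the 109 members (rows, ordered by the salt response of naive cultures) in the 16 cultures (columns), as log2(CPM + 0.5) minus the mean of the naive refed cultures. Grown and refed columns are pale, and within salt and used medium the pre-starved columns are darker blue than the naive ones.

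**Figure D2:**
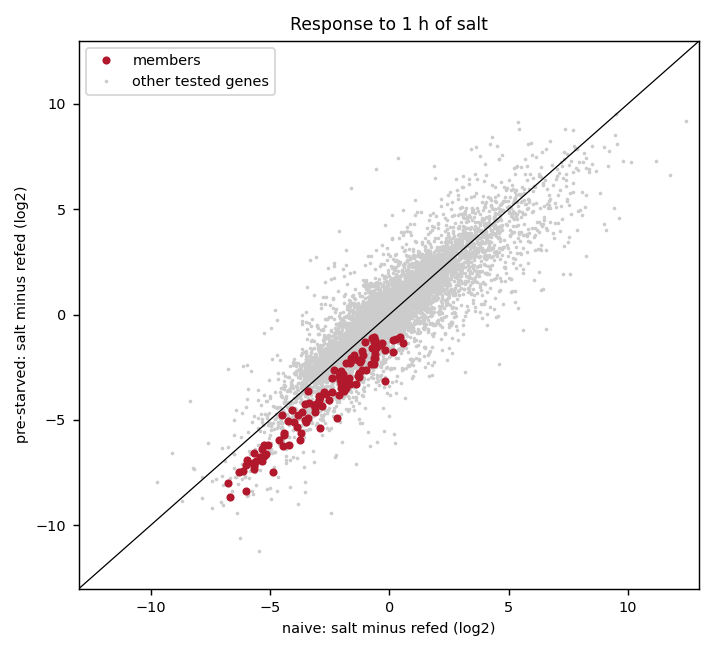
Each point is 1 of 10022 tested genes, with the log2 change from refed to 1 h of salt in naive cultures (x axis) and in pre-starved cultures (y axis), members in red and the line marking equal responses. All members lie under the line because the rule chose them so, with a median of -3.67 in pre-starved and -2.40 in naive cultures.

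Nitrate assimilation gave 2 members of its 5 listed genes. The gene niaD (AN1006), for nitrate reductase, stood at 5.85 and 6.12 CPM in pre-starved salt cultures, against 15.1 and 17.9 CPM in naive salt cultures. In used medium it stood at 3.07 and 3.003 CPM in pre-starved cultures, against 14.9 and 10.3 CPM in naive cultures. The groups did not overlap in either medium, as in 107 of the 109 members in salt and 107 in used medium. Of all tested genes 33.4% lay so in salt and 33.3% in used medium. The rule chose the members for this gap, so the log2 differences are descriptions. They were -1.46 (SE 0.18) in salt and -2.05 (SE 0.19) in used medium for niaD. Refed, niaD stood at 2345 and 2500 CPM in pre-starved cultures, against 1627 and 1746 CPM in naive ones, so that it began the second starvation from a higher level and ended it at a lower one. AN0399, listed here as the second nitrate transporter gene crnB from background knowledge (the reference table gives it no symbol), had 26.0 and 24.7 CPM in pre-starved salt cultures, against 47.6 and 49.7 CPM in naive salt cultures. Its refed levels were 801 and 804 CPM in pre-starved cultures, against 541 and 570 CPM in naive cultures, and its log2 difference was -0.94 (SE 0.12) in salt and -1.01 (SE 0.12) in used medium.

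The other genes of the nitrate list differed in where they missed the rule. The nitrite reductase gene niiA and the nitrate transporter gene crnA met all of it but the refed ratio, which was 1.59 for niiA and 1.68 for crnA. In salt niiA had 69.7 and 75.8 CPM in pre-starved cultures, against 125 and 151 CPM in naive cultures, and crnA had 4.74 and 5.97 CPM in pre-starved cultures, against 9.52 and 10.7 CPM in naive cultures. Both were thus lower in each pre-starved culture than in each naive one. The activator gene nirA had 68.0 and 61.8 CPM in pre-starved salt cultures, against 59.3 and 54.9 CPM in naive salt cultures, which is in the other direction. In the starved cultures, which the rule did not use, 4 of the 5 genes were lower than in grown cultures, against 34.6% of all tested genes. In starved cultures nirA was not called lower (-0.22 on the log2 scale with an SE of 0.12, adjusted p 0.112). The gene niaD stood there at 3.20 and 2.31 CPM, against 1413 and 1519 CPM in grown cultures (log2 change -9.06, SE 0.24, adjusted p 6.61e-11).

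In the glycolysis list 1 of 11 genes was a member, the one listed for the step from pyruvate towards ethanol. AN4888, entered in the glycolysis list as the pyruvate decarboxylase gene pdcA from background knowledge (it has no symbol in the reference table), had 162 and 137 CPM in pre-starved salt cultures, against 225 and 337 CPM in naive salt cultures. In used medium it had 98.8 and 100 CPM in pre-starved cultures, against 290 and 213 CPM in naive cultures. Its refed level was the closest to equal among the members named so far, with 12468 and 15966 CPM in pre-starved cultures, against 13480.0 and 14987 CPM in naive cultures. The log2 difference between histories was -0.91 (SE 0.21) in salt and -1.34 (SE 0.21) in used medium. The other 10 listed genes missed the gap in salt, and 7 of them also missed the refed ratio and the gap in used medium. For gpdA, the glyceraldehyde-3-phosphate dehydrogenase gene, the naive over pre-starved ratio was 1.42 in salt and 1.04 in used medium. All 11 genes were lower in starved than in grown cultures, against 34.6% of all tested genes. Their log2 changes ran from -0.85 to -6.86, the latter for AN4888 (SE 0.27, adjusted p 5.05e-10).

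None of the other 7 lists held a member. Their calls in starved against grown cultures stand beside 34.6% of all tested genes lower and 38.8% higher. Of those, the lists of nitrogen regulation with ammonium assimilation (5 of 5 genes), siderophore and iron regulation (7 of 7) and amino acid, nucleotide and vitamin synthesis (7 of 8) were largely lower in starved than in grown cultures. The glutamine synthetase gene glnA had a refed ratio of 1.32, within the rule, and a naive over pre-starved ratio of 1.29 in salt and 1.46 in used medium, under the threshold. The nitrogen regulator gene areA was on the other side, with a naive over pre-starved ratio of 0.822 in salt and 0.691 in used medium. Of the cell wall list 6 of 10 genes were lower and 3 higher in starved cultures, of the histones 3 of 7 were higher, of gluconeogenesis and acetate use 2 of 8, and of the spore-formation markers 5 of 7.

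**Figure D3:**
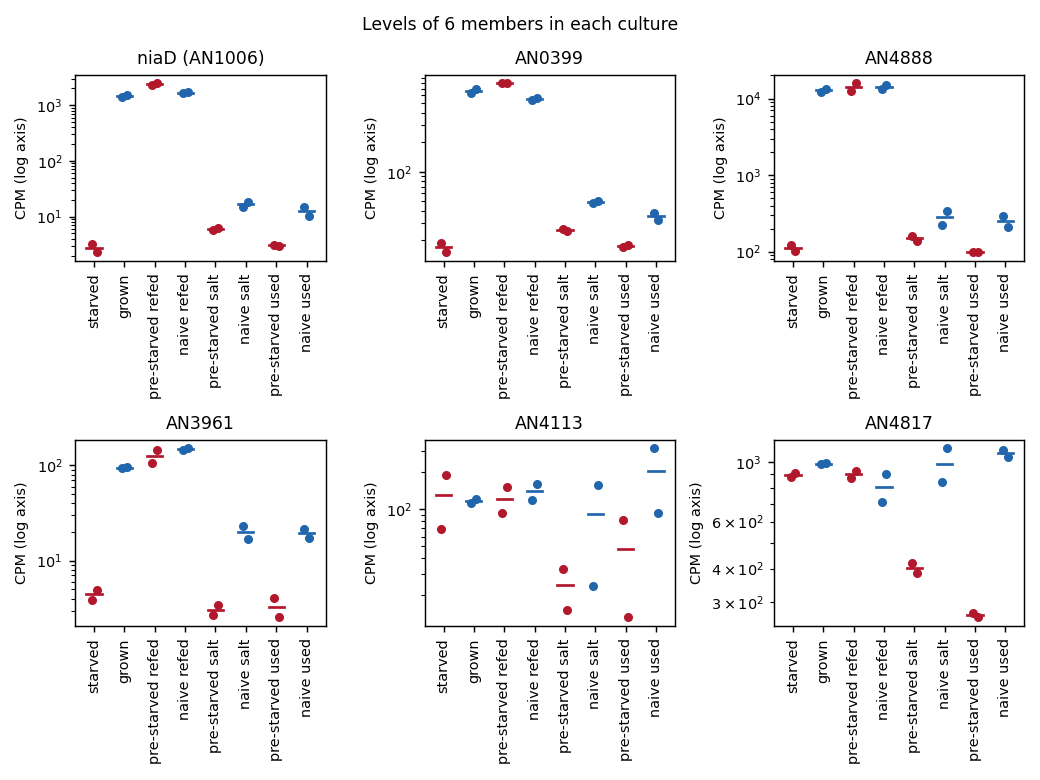
Levels of 6 members in each culture, in CPM on log axes, with cultures A and B as points and the mean as a line. Groups with a past or present 4 h starvation are red and the others blue. For niaD, AN0399, AN4888, AN3961 and AN4817 the red salt and used medium points lie below the blue ones, and for AN4113 the salt cultures overlap.

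The reference annotation gave a symbol to 7 of the 109 members (6.42%, against 7.72% of tested genes), niaD among them. The gene zpr1 (AN2455), whose yeast counterpart is a zinc-finger protein that binds the translation elongation factor eEF1A, had 32.1 and 41.7 CPM in pre-starved salt cultures, against 94.2 and 80.3 CPM in naive salt cultures. In used medium it had 31.0 and 37.4 CPM in pre-starved cultures, against 70.4 and 74.5 CPM in naive cultures. Neither pair of groups overlapped, as in most members by the choice of the rule. Refed, zpr1 was at 464 and 441 CPM in pre-starved cultures, against 303 and 331 CPM in naive cultures. Like niaD and AN0399 it thus had a higher start and a lower end. A higher start was less common among members than a lower one, as the refed ratio was under 1 in 62 of the 109 members. Among the 10022 tested genes it was under 1 in 4765. In the members the rule bounded this ratio. The gene grc3 (AN4599), in yeast a polynucleotide kinase of ribosomal RNA processing, had 4.46 and 6.76 CPM in pre-starved salt cultures, against 10.0 and 11.3 CPM in naive salt cultures. Its log2 difference was -0.93 (SE 0.27) in salt and -0.85 (SE 0.27) in used medium, close to the smallest the rule allows.

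Among the other members with a symbol, fes1 (AN6543), in yeast a nucleotide exchange factor of the chaperone Hsp70, had 79.8 and 110 CPM in pre-starved salt cultures, against 190 and 215 CPM in naive salt cultures. Its log2 difference was -1.09 (SE 0.26) in salt and -1.08 (SE 0.26) in used medium. The gene aspf34 (AN8333), named for an allergen of Aspergillus fumigatus, had 2.56 and 2.81 CPM in pre-starved salt cultures, against 7.44 and 6.94 CPM in naive salt cultures. The gene frdA (AN10296) had 26.5 and 30.1 CPM in pre-starved salt cultures, against 40.1 and 59.6 CPM in naive salt cultures, after refed levels of 3585 and 4439 CPM in pre-starved and 2943 and 3328 CPM in naive cultures. These 3 genes had no overlap in salt, as in 107 of the 109 members, which the rule chose for this gap. The gene cbpA (AN6249) varied more between cultures. It had 170 and 132 CPM in pre-starved salt cultures, against 293 and 391 CPM in naive salt cultures, but 422 and 1069 CPM in the pre-starved refed cultures A and B, and its log2 difference in salt was -1.18 (SE 0.60).

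The widest gaps between histories belonged to genes without a symbol. Of the members 15 had a naive over pre-starved ratio of at least 3 in salt, 16 in used medium and 10 in both. Among the 10022 tested genes 171 had it in salt, 169 in used medium and 85 in both. With 0.5 CPM added, AN3961 had the widest in salt, a ratio of 5.72, while the fitted log2 difference was wider for AN8374 (-2.99) and AN1311 (-2.94) than for AN3961 (-2.69). AN3961 had 2.70 and 3.43 CPM in pre-starved salt cultures, against 22.9 and 16.9 CPM in naive salt cultures. Its used medium levels were nearly the same, with 4.06 and 2.54 CPM in pre-starved cultures, against 21.7 and 17.3 CPM in naive cultures. AN11047 had the widest in used medium by either measure, a ratio of 5.37, with 0.177 and 0.153 CPM in pre-starved cultures, against 2.67 and 3.48 CPM in naive cultures. Its naive refed level was 5.496 and 4.02 CPM, so 1 h of salt had left the naive cultures (3.61 and 4.98 CPM) about where they were, while the pre-starved salt cultures stood at 0.643 and 0.731 CPM.

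Several of the widest gaps were found in genes whose level fell far in starvation. AN4127 had 30.7 and 31.6 CPM in pre-starved salt cultures, against 88.4 and 134 CPM in naive salt cultures, and 3214 and 4345 CPM in pre-starved refed cultures, against 4302 and 6239.6 CPM in naive refed cultures. AN7278 had 2.25 and 2.45 CPM in pre-starved salt cultures, against 8.33 and 10.9 CPM in naive salt cultures, with a log2 difference of -2.03 (SE 0.21) in salt and -2.25 (SE 0.21) in used medium. AN8374 had 0.278 and 0.263 CPM in pre-starved salt cultures, against 2.17 and 2.14 CPM in naive salt cultures. In each of these the 2 histories were apart in both cultures, which the choice of the members favoured. With 0.5 added to each level, the ratio of AN8374 was 3.45, while the fitted log2 difference was -2.99 (SE 0.33), so the ratios understate the gap of genes at such low levels. In pre-starved salt cultures 13 members had a mean under 1 CPM, as did 1168 of the 10022 tested genes. The lowest summed count of any member in any group was 8, and no group of a member was at 0.

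The gaps in the 2 media went together across members only in part. Pearson's r of the log2 ratios was 0.644 and Spearman's rho 0.467 over the 109 members, which share the same cultures and were chosen for a gap in both, so these are descriptions. The ratio was larger in used medium for 60 of the 109 members, as it was for 5709 of the 10022 tested genes. AN4817 had 420 and 384 CPM in pre-starved salt cultures, against 843 and 1127 CPM in naive salt cultures, and 274 and 263 CPM in pre-starved used medium cultures, against 1109 and 1048 CPM in naive ones. Its ratio was 2.45 in salt and 4.01 in used medium. AN6167 was the other way, with a ratio of 3.07 in salt and 1.77 in used medium. AN4113 had one of the widest mean gaps, but its cultures disagreed. It had 32.99 and 15.3 CPM in pre-starved salt cultures, against 24.0 and 158 CPM in naive salt cultures, and the gap in salt thus rested on naive salt culture B.

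Members differed in how much naive cultures lost in 1 h of salt. By the ratio of naive refed over naive salt level, 44 fell by a factor of 8 or more, 43 by a factor of 2 to 8, 10 by 1.5 to 2, and 12 by under 1.5. A fall to 1/2 or less in naive salt cultures was thus seen in 87 members, against 25.4% of tested genes. In used medium such a fall was seen in 84 members in naive cultures, against 25.7% of tested genes, and in 101 in pre-starved cultures, against 24.9%. The rule required a fall in pre-starved salt cultures from a like refed level, so these shares partly restate the choice of the members. The median naive over pre-starved ratio was 2.10 in salt and 2.41 in used medium in the first of these classes, and 2.42 in salt and 2.21 in used medium in the last. The rule kept ratios under 1.7 out of every class, so nothing is read from these medians. The classes were set after the values were seen and got no test.

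The last class ran from genes that lost part of their level in naive salt cultures, such as AN11152 (naive refed over naive salt 1.48), to genes that stood higher there than refed. AN4328 had 46.3 and 39.5 CPM in pre-starved salt cultures, against 143 and 154 CPM in naive salt cultures. Its refed levels were 99.9 and 120 CPM in pre-starved cultures, against 95.8 and 103 CPM in naive cultures. It was thus higher in salt than after refeeding in naive cultures (log2 difference 0.57, SE 0.12) and lower in pre-starved ones (log2 difference -1.36, SE 0.13). AN1483 had the same opposite changes, with 29.6 and 23.7 CPM in pre-starved salt cultures, against 74.0 and 78.0 CPM in naive salt cultures. Its refed levels were 53.4 and 59.0 CPM in pre-starved cultures, against 53.1 and 57.7 CPM in naive cultures. AN4817 and AN6167 stood likewise above their naive refed mean in naive salt cultures, as did AN4711, and the other 7 of this class were AN11047, AN11152, AN12119, AN1446, AN6436, AN7605 and AN8990. In used medium 9 members stood above their refed mean in naive cultures. These changes belong to the contrasts that chose the members and are given without a test.

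The first starvation could be tested, because the rule used neither the starved nor the grown cultures. After 4 h of salt, 96 of the 109 members were lower than in grown cultures, 1 was higher and 12 were not called. Of all tested genes 34.6% were lower, 38.8% higher and 26.6% not called. The median log2 change was -2.80 in the members and 0.10 in all tested genes. The summed spore-formation markers stood at 1075 and 1506 CPM in starved cultures, against 23.4 and 25.02 CPM in grown cultures, and their part in this result was not tested. With library totals in place of TMM, which raised the median of all genes to 0.60, 89 members were lower and 3 higher, against 23.3% and 53.7% of all genes. The starved level lay below both grown cultures in both starved cultures for 104 members, as for 40.6% of all genes. The members had all been required to fall in salt in pre-starved refed cultures, so this count is to be read beside that requirement.

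The largest falls of the first starvation after niaD were those of AN4127, AN10507, AN1311 and AN5860. AN4127 stood at 11.2 and 12.0 CPM in starved cultures, against 5528 and 4773 CPM in grown cultures (log2 change -8.80, SE 0.40, adjusted p 1.30e-09). AN10507, which lies next to AN4127 in the annotation, stood at 3.24 and 4.09 CPM in starved cultures, against 1287 and 1289 CPM in grown cultures (log2 change -8.47, SE 0.32, adjusted p 3.47e-10). AN1311 stood at 0.145 and 0.195 CPM in starved cultures, against 55.9 and 47.3 CPM in grown cultures (log2 change -8.24, SE 0.47, adjusted p 9.11e-09). AN5860 stood at 14.4 and 11.7 CPM in starved cultures, against 2666 and 3225 CPM in grown cultures (log2 change -7.83, SE 0.24, adjusted p 1.25e-10). Each of these genes was thus at under 1% of its grown level. Among members with a symbol zpr1 fell (log2 change -1.81, SE 0.15, adjusted p 2.13e-07), as did aspf34, grc3 and frdA, while cbpA did not pass (-0.97 on the log2 scale with an SE of 0.59, adjusted p 0.159). This outcome for cbpA rested on starved culture B, without which its log2 change was -2.27 (adjusted p 0.00734). The gene fes1 was called lower (-0.80 on the log2 scale, SE 0.26, adjusted p 0.0140), but not without starved culture A (-0.46) or grown culture B (-0.76), nor with library totals (-0.31).

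The 1 member called higher was AN4711, with 48.7 and 57.7 CPM in starved cultures, against 29.5 and 27.1 CPM in grown cultures (log2 change 0.90, SE 0.34, adjusted p 0.0297). It no longer passed without starved culture B (0.77), grown culture A (0.96) or grown culture B (0.84). Of the 12 members that were not called, 8 had fallen by less than a factor of 2 in naive salt cultures. AN4817 stood at 882 and 914 CPM in starved cultures, against 981 and 989 CPM in grown cultures (log2 change -0.15, SE 0.14, adjusted p 0.376), so that its level after 4 h of first starvation was about its grown level, although pre-starved salt cultures had 420 and 384 CPM. AN4113 (log2 change 0.15, SE 0.90, adjusted p 0.888) stood at 69.5 and 191 CPM in starved cultures, against 112 and 121 CPM in grown cultures, and without starved culture B its log2 change was -0.75. AN4328 was called lower (log2 change -0.63, SE 0.13, adjusted p 6.41e-04), but with library totals it was not (-0.12). In the class that fell by a factor of 8 or more in naive salt cultures all 44 were lower, in the next class 39 of 43, in the third 6 of 10, and in the last 7 of 12. Across the 109 members the log2 change of the first starvation went with the salt response of naive cultures (Pearson's r 0.939, Spearman's rho 0.941). It hardly went with the gap between histories in salt (Pearson's r 0.245, Spearman's rho 0.152). Genes are not independent replicates, and the rule used the refed and salt groups. The same correlations over all tested genes were not computed, so these are descriptions.

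**Figure D4:**
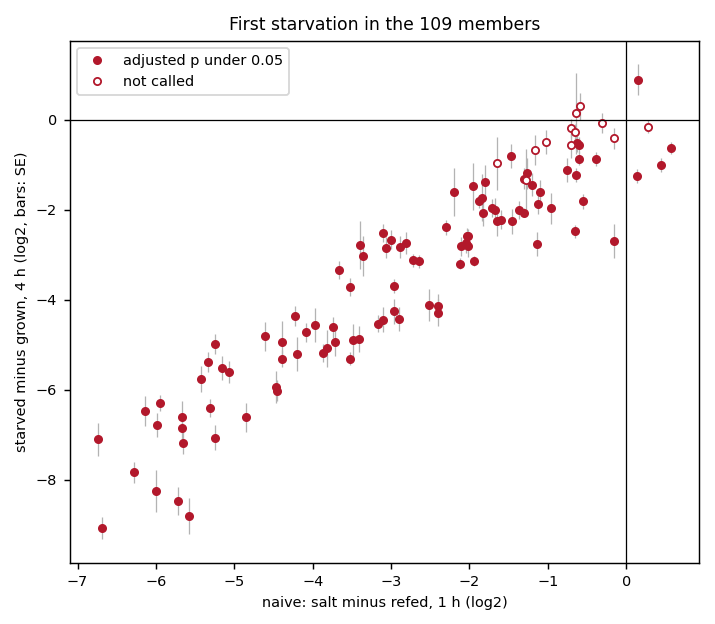
Log2 change from grown to starved cultures (y axis, bars show the SE) against the log2 change from refed to salt in naive cultures (x axis) for the 109 members, filled where the adjusted p of starved against grown was under 0.05. The 12 open points lie at the weak end of the naive salt response, and 1 filled point, AN4711, lies above 0.

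After 1 h of renewed salt, most members stood lower in pre-starved cultures than after the 4 h of the first starvation, whereas in naive cultures most still stood above that level. With 0.5 CPM added, the pre-starved salt mean was below the starved mean in 86 of 109 members, against 48.3% of tested genes, and the naive salt mean was above it in 87, against 46.7%. A margin of 1.5-fold was reached by 50 members on the pre-starved side (14.4% of tested genes) and by 55 on the naive side (17.5%). The median log2 difference from starved cultures was -0.56 for pre-starved salt and 0.67 for naive salt cultures, and -0.64 for pre-starved and 0.65 for naive used medium cultures. For 64 members the starved mean lay above the pre-starved and below the naive salt mean, against 1244 of the 10022 tested genes. It lay above both for 22 members (3600 of tested genes) and below both for 23 (3432 of tested genes). The choice of low pre-starved and high naive levels favours this order, so no test was made. The gene fes1 was among those well below, with 79.8 and 110 CPM in pre-starved salt cultures, against 202 and 347 CPM in starved cultures, and zpr1 likewise, with 32.1 and 41.7 CPM in pre-starved salt cultures, against 85.5 and 99.7 CPM in starved cultures. The gene niaD went the other way, with 5.85 and 6.12 CPM in pre-starved salt cultures, against 3.20 and 2.31 CPM in starved cultures, and AN4127 stood at 30.7 and 31.6 CPM in pre-starved salt cultures, against 11.2 and 12.0 CPM in starved cultures.

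**Figure D5:**
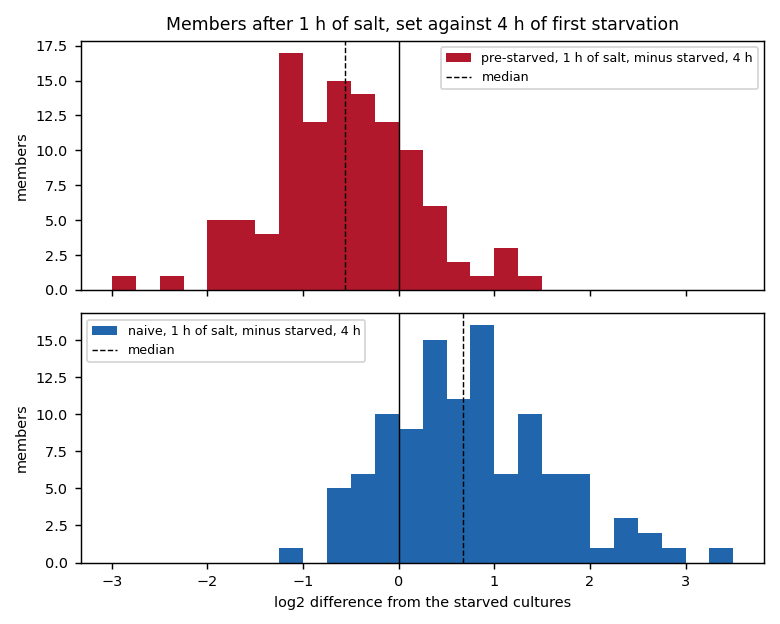
Histograms of the log2 difference of the 109 members from the starved cultures, for pre-starved cultures after 1 h of salt (top, red) and naive cultures after 1 h of salt (bottom, blue), with dashed medians at -0.56 and 0.67 and a solid line at 0.

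Before nutrients were removed, the members' median in naive refed cultures was close to the level of undisturbed growth. Their median log2 difference between naive refed and grown cultures was 0.14, against -0.02 in all tested genes. Single members ran from -0.80 to 0.88. Refed, 29 members lay below the naive cultures in both pre-starved cultures, as did 33.7% of tested genes, and 19 lay above, against 38.1%. The rule bounded the refed ratio without barring such separation of cultures, and its part in these shares was not tested. Per kb of deposited exon length, the median salt level was 5.96 CPM in pre-starved and 14.0 CPM in naive cultures, and in all tested genes 18.9 CPM in pre-starved and 16.6 CPM in naive cultures. Refed, the member median per kb was 82.6 CPM in pre-starved and 85.9 CPM in naive cultures, and in all tested genes 17.8 CPM in pre-starved and 17.4 CPM in naive cultures. The members' median thus lay below that of all genes in salt and above it after refeeding. Their median exon length of 1.502 kb was close to that of tested genes, 1.548 kb.

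Some members were neighbours in the gene order of the reference annotation, which held 102 of them. AN6422, AN6423 and AN6424 form a run of 3 on chromosome I. AN6423 had 27.9 and 41.8 CPM in pre-starved salt cultures, against 108 and 119 CPM in naive salt cultures, AN6422 had 2.13 and 3.12 CPM in pre-starved, against 7.07 and 6.54 CPM in naive salt cultures, and AN6424 had 22.0 and 28.8 CPM in pre-starved, against 47.8 and 46.0 CPM in naive salt cultures. No culture of the 2 histories overlapped for any of the 3, as in most members by the choice of the rule. The genes on either side, AN10818 and AN6421, had means under 1 CPM in all 8 groups. The other adjacent pairs were AN6820 with AN6821 on chromosome I, AN10507 with AN4127 on chromosome II, AN7278 with AN10921 on chromosome IV and AN1310 with AN1311 on chromosome VIII. The last pair had 0.583 and 0.550 CPM (AN1310) and 0.102 and 0.132 CPM (AN1311) in pre-starved salt cultures, against 1.93 and 2.59 CPM (AN1310) and 0.570 and 1.26 CPM (AN1311) in naive salt cultures. The measured genes beside these pairs were not all silent. AN1312, beside AN1311, had a naive over pre-starved ratio of 2.30 in salt and 1.88 in used medium, but a refed ratio of 0.347. For AN10506, AN7279 and AN10920 the ratios ran from 1.20 to 1.74, and for AN6819 and AN1309 they were under 1. AN10506, beside the pair of AN10507 and AN4127, had a mean of 0.183 CPM in pre-starved and 0.449 CPM in naive salt cultures. In used medium it had 0.0749 CPM in pre-starved and 0.190 CPM in naive cultures. With 0.5 CPM added, its ratios understate the gap at such low levels. Since the libraries kept no strand, reads of overlapping neighbours cannot be told apart.

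The thresholds cut a continuous range. For the gap in salt AN8726 (ratio 1.71) and AN10050 (1.71) lay just inside and AN8098 (1.69) and AN3714 (1.69) just outside, with 58 genes missing the rule by this criterion alone. For the gap in used medium AN11006 (1.704) and AN1483 (1.71) lay inside and AN9470 (1.69) and AN4508 (1.68) outside, with 48 genes missing by it alone. For the refed ratio AN5946 (0.672) and AN1717 (0.675) lay inside the lower bound and AN2556 (0.666) and AN10177 (0.662) outside, with 88 genes missing. At the upper bound AN7605 (1.47) and AN0399 (1.44) lay inside and AN2530 (1.52) and AN1163 (1.52) outside, with 19 genes missing. For the pre-starved salt fall AN5650 (2.07) and AN1483 (2.09) lay inside and AN9370 (1.98) and AN2359 (1.96) outside, with 76 genes missing. For the naive refed value AN10447 (5.0002) and AN11047 (5.26) lay inside and AN9374 (4.98) and AN8315 (4.19) outside, with 5 genes missing.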

How the data were processed

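Per the labels, a TruSeq kit (v2, without strand) gave libraries that a HiSeq sequencer read from 1 end for 50 bases. Reads were mapped to the genome of strain FGSC A4, per the labels' protocols. Per the submitters' processing notes, edgeR, limma, HTSeq, BWA and Trimmomatic 0.36 were used, in roles that the notes leave unstated. The gene annotation is not stated in what was used here. The authors deposited raw counts per gene in 1 column per library. Columns of log2 FPKM per group were deposited by the authors too and were not used, and the deposited log2 exon length in kb served for levels per length.

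With R 4.3.3, edgeR 4.0.16 scaled the 32 libraries by TMM for the rule, and culture levels are means of the 2 technical libraries. For fold changes, technical libraries were summed, since the labels call A and B biological and 1 and 2 technical replicates. The 10022 genes kept by filterByExpr (minimum count 10, minimum total 15) were fitted with 1 mean per group and no block, with 8 residual degrees of freedom, and p was adjusted by Benjamini-Hochberg. The scripts were tested on simulated data. SEs are the log2 change over the root of the quasi-likelihood F. Alternatives used DESeq2 1.42.0 and limma 3.58.1. Members, lists, classes and the rule for naming genes were chosen with earlier results of these data known. The rule named members with a symbol, with the largest gaps or first-starvation changes, next to another member, or nearest a threshold. The other genes named were chosen after their values were seen. Of 68 genes in 9 fixed lists the reference table (ASM1142v1, used for names and gene order) gave 43 a symbol, the same for 30. The 9 lists planned from product descriptions and the promoter motifs were not used here.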

Additional observations from a re-analysis of the deposited data

How the results depend on the processing

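The count of members by the rule depended on its settings. It was 71 with library totals (62 of them among the 109), 73 with an offset of 2, 108 with TMM over summed cultures, 166 with a threshold of 1.5 and 56 with a threshold of 2, and 87 to 125 with any 1 culture of the 6 groups left out (87 without pre-starved refed culture B). For starved against grown, 89 members were lower with library totals, 97 with DESeq2, 99 with duplicate correlation, 100 with the 4 cultures alone and 91 to 96 with 1 culture left out. The number higher was 3 with library totals, and 0 to 1 with a culture left out. Library totals moved the median salt response to -2.90 (pre-starved) and -1.87 (naive) and the used medium response to -2.98 (pre-starved) and -1.92 (naive), in step with the median of all genes, which rose to 0.86, 0.49, 0.67 and 0.39. With a culture left out, the median refed difference ran from -0.20 to 0.037 and changed sign without pre-starved refed A (0.021) or naive refed B (0.037). The median difference between histories ran from -1.28 to -1.10 in salt and from -1.42 to -1.10 in used medium, with its direction fixed by the rule. Of the named genes, AN10050 changed sign with library totals (0.0089), AN4113 with duplicate correlation (-0.020) and without starved culture B (-0.75 to 0.70 with any 1 culture left out), and AN7605 without starved culture B (-0.25 to 0.70). The cause was not tested. With the culture letter as a replicate block, 96 members were lower and 1 higher, as without it. Deviations of same-letter cultures correlated at 0.0907 between starved and grown and at -0.37 to 0.48 over the 28 pairs of groups, and the labels give the letters no shared origin, so they were not taken as pairs. With 2 cultures per group, spread is estimated mainly from all groups together, and counts limit members at under 1 CPM.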
